A study of Drosophila melanogaster with 3 samples.

Results

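The mRNAs of 10 genes for axonal transport motors and their adaptors were measured in adult heads of wild-type *Drosophila*. The members were taken by symbol from the list of kinesin, dynein, dynactin and mitochondrial adaptor genes and matched to FlyBase gene IDs, and 10 of the 17558 genes in the count table belong to it. They encode the kinesin-1 motor *Khc* and its light chain *Klc*, the kinesin-3 motor *unc-104*, the heavy chain (*Dhc64C*) and intermediate chain (*sw*) of cytoplasmic dynein, the dynein regulator *Lis-1*, the large dynactin subunit *DCTN1-p150*, and the adaptors *milt*, *Miro* and *syd*. The 3 libraries were replicates 1 to 3 of a single group: untreated adult flies labelled wild type, grown at 25°C, with polyadenylated RNA selected from total head RNA. The series text names Canton S flies and the methods of the study name a white-mutant strain as wild type, so the strain was not settled. The labels give no age, and no source states whether the replicates came from separate cultures, so the spread between libraries may be technical. With a single group, levels were compared from gene to gene inside each library, and each gene was compared over the replicates.

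Microtubules in axons point their plus ends away from the cell body. Kinesin-1 and kinesin-3 walk towards plus ends and carry mitochondria, vesicle precursors and other cargo outwards, while cytoplasmic dynein, with dynactin as its cofactor, returns cargo to the cell body. Adaptors choose the cargo: Milton links kinesin-1 to the GTPase Miro on the mitochondrial surface, and Sunday driver (*syd*) links vesicles to both kinesin-1 and dynein. Adult heads hold the brain and the retina, both rich in neurons, besides glia, muscle and fat body.

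The libraries held between 6299265 and 8332583 counts, so that a floor of 3 counts lay between 0.36 and 0.476 CPM (counts per 1000000 counts of the library). The neuron markers *elav*, *nSyb*, *Syt1* and *brp* summed to between 3162 and 3736 CPM, the 5 glia markers to between 3328 and 3603 CPM, and 4 muscle markers to between 4663 and 5628 CPM. The sum of the 5 fat body and storage markers ranged most widely, from 20715 to 30211 CPM, and was highest in replicate 2. Haemocyte markers summed to between 283 and 404 CPM. The 4 photoreceptor markers reached the highest sums, between 34024 and 36546 CPM. The transport genes are used in many of these cell types, and in whole heads fewer cells of a type and less RNA per cell cannot be told apart.

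All 10 transport mRNAs were detected, with at least 293 counts in each library. Together they took 0.294% ± 0.0174 of counts (SD, n = 3): 0.29%, 0.278% and 0.313% in replicates 1, 2 and 3. The Wilson 95% intervals, which cover counting error only, did not overlap. Of these counts, 46.7% ± 1.20 fell on *unc-104* alone (SD, n = 3). The lowest member in CPM was *sw*, 27.7-fold below *unc-104*.

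**Figure D1:**
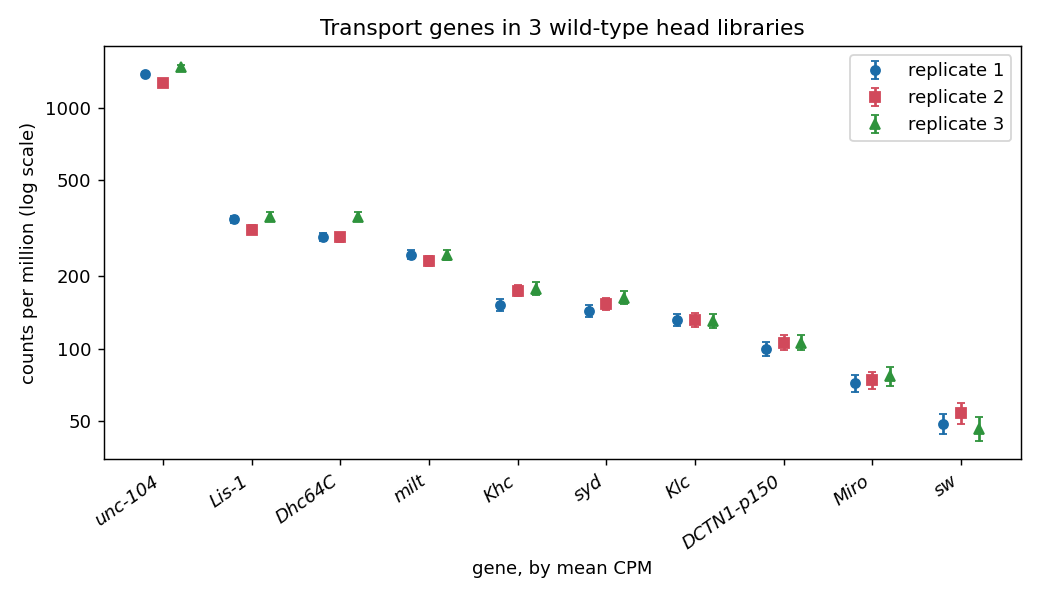
CPM (log scale) of the 10 transport genes in each of the 3 replicate head libraries, with Wilson 95% intervals of counting error as bars. *unc-104* lay between 1261 and 1478 CPM in the 3 libraries, and no other member exceeded 353 CPM.

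Kinesin motors came first in the list. *unc-104* (FBgn0267002, chromosome 2R, 16751503 to 16772671, minus strand, dm6 coordinates as for all positions here) encodes the kinesin-3 that carries synaptic vesicle precursors. It had 11474, 9268 and 9312 counts in replicates 1, 2 and 3, or 1377, 1261 and 1478 CPM. Its Wilson intervals were 1352 to 1402, 1236 to 1287 and 1449 to 1509 CPM, so the 3 libraries did not overlap, with replicate 2 lowest and replicate 3 highest. It exceeded 99.4% ± 0.0446 of the 10100 detected genes (SD, n = 3), where detection meant a sum of 10 counts or more in the table.

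*Khc* (FBgn0001308, 2R, 16266960 to 16271971, minus strand) encodes the heavy chain of kinesin-1, which has the motor domain. It had 1265, 1279 and 1118 counts, or 152, 174 and 177 CPM. Replicate 1 was the low library, with an interval of 144 to 160 CPM that lay below those of the other libraries. *Klc* (FBgn0010235, 3L, 12746616 to 12750056, minus strand) encodes the light chain that binds cargo. Its 1094, 966 and 818 counts gave 131, 131 and 130 CPM, the closest agreement between libraries among the 10 genes in CPM.

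Levels of different genes were compared per kilobase of exon, because longer mRNAs give more fragments. The length of a gene was that of all its annotated exons merged. Per kilobase, *unc-104* reached 170 CPM ± 13.5, *Klc* 63.4 ± 0.424 and *Khc* 45.1 ± 3.75 (SD, n = 3). *Klc* was thus 1.41-fold above *Khc* (log2 ratio of *Khc* to *Klc* -0.49 ± 0.13), in 3 of 3 libraries. *unc-104* was 3.77-fold above *Khc* (log2 ratio of *Khc* to *unc-104* -1.91 ± 0.16), also in 3 of 3 libraries. Both differences were larger than the spread between libraries.

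Other kinesins set *unc-104* in context. Among 21 kinesin motor genes of the lists, *unc-104* took 60.7% ± 1.43 of the counts and *Khc* 7.44% ± 0.681; per kilobase the shares were 47.9% ± 1.49 and 12.7% ± 1.09 (SD, n = 3). *Khc-73* and *Klp98A*, further motors of the kinesin-3 family, had 31.4 ± 1.39 and 18.3 ± 0.787 CPM per kilobase. *unc-104* was 5.41-fold above *Khc-73* and 9.26-fold above *Klp98A* on that scale, in 3 of 3 libraries each. The 3 mRNAs of heterotrimeric kinesin-2, a motor of cilia and axons, lay close together: 27.7 ± 0.965 for *Klp64D*, 22.7 ± 0.757 for *Klp68D* and 23.5 ± 0.563 for the accessory subunit *Kap3*. *Klp64D* was above *Klp68D* by a log2 value of 0.29 ± 0.02 and above *Kap3* by 0.24 ± 0.05, both beyond the spread between libraries, and *Khc* was 1.63-fold above *Klp64D*. *Kif3C*, with 123, 88 and 107 counts, was the lowest of the other transport kinesins at 3.33 ± 0.574.

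Kinesins known for spindle work were listed separately. Detection was reached by 7 of 13 such genes, whose median was 1.45 CPM per kilobase. *Klp10A*, a microtubule depolymerase, was the highest with 15.8 ± 1.19 and *neb* the lowest of those detected with 0.426 ± 0.0909 CPM per kilobase (SD, n = 3). The counts of *Klp61F*, the kinesin-5 of the spindle, were 1, 1 and 0, while *cmet* and *sub* had 0 in each library, which allows up to 0.476 CPM in the shallowest. The level of *sw*, the lowest of the 10 members, was 15.0 CPM per kilobase, and *Klp10A* also lay above the transport kinesins *Klp31E* (7.61) and *Kif3C*.

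Dynein subunits showed a wide range. *Dhc64C* (FBgn0261797, 3L, 4807368 to 4825687, minus strand) encodes the heavy chain with the motor ring. It had 2417, 2126 and 2219 counts, or 290, 289 and 352 CPM. Replicate 3 stood above the other libraries, with an interval of 338 to 367 CPM against 279 to 302 and 277 to 302. Its exons span 14597 bases, the longest of the 10 genes, and per kilobase it fell to 21.3 CPM ± 2.48 (SD, n = 3).

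*sw* (FBgn0003654, X, 20227961 to 20236382, minus strand) encodes the intermediate chain, through which dynein binds dynactin. It had 405, 395 and 293 counts, or 48.6, 53.7 and 46.5 CPM, and the 3 intervals overlapped. Per kilobase it was the lowest member at 15.0 ± 1.13 (SD, n = 3). The sperm intermediate chain genes *Sdic1* to *Sdic4*, near-identical copies derived from *sw*, had 0 counts in every library. How reads that match both *sw* and its copies were assigned is not given in the sources used here, so the level of *sw* is uncertain.

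*Dhc64C* was above *sw* per kilobase by a log2 value of 0.50 ± 0.25 in 3 of 3 libraries. The remaining detected dynein subunits were higher than the heavy chain. The light intermediate chain *Dlic* had 41.8 ± 1.57 CPM per kilobase, and the light chains *robl*, *Dlc90F* and *ctp* had 61.9 ± 2.98, 63.3 ± 5.82 and 123 ± 10.8 (SD, n = 3). The ratios to *Dhc64C* ran from 1.97-fold for *Dlic* to 5.81-fold for *ctp*, each in 3 of 3 libraries. Their size depended on the measure of length. The log2 ratios of 0.98 for *Dlic* and 2.54 for *ctp* became 2.28 and 5.01 per kilobase of coding sequence. *Cdlc2*, which encodes a light chain almost the same as that of *ctp*, had 0 counts in every library. Whether reads can match both genes was not tested, so the level of *ctp* is uncertain too.

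*Dhc64C* was also compared with other dynein heavy chains. Of the counts on 10 such genes, without *Dhc1* and *Dhc16F*, which were not analysed here, it took 85.5% ± 1.18 (SD, n = 3). The others serve axonemes and cilia, which in the fly occur in sperm and in sensory neurons. *Dhc93AB* was the highest of them with 224, 196 and 169 counts and 1.91 CPM per kilobase, and *btv*, the heavy chain of ciliary transport, had 119, 97 and 87 counts. *Dhc98D* was the lowest detected, with 0.134 CPM per kilobase. The Y-linked *kl-2* and *kl-5* had 0 counts in each library, and *kl-3* had a single count.

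*Lis-1* (FBgn0015754, 2R, 16178826 to 16185103, plus strand) encodes a WD40-repeat protein that binds the dynein motor. It had 2865, 2292 and 2226 counts, or 344, 312 and 353 CPM. Replicate 2 was low, with an interval of 299 to 325 CPM that did not reach those of replicates 1 and 3. Per kilobase, *Lis-1* ranked second of the 10 genes at 97.2 ± 6.28 (SD, n = 3), 4.58-fold above *Dhc64C* and 4.26-fold above *DCTN1-p150*. The annotation gives *Lis-1* transcripts of 1675 to 3292 bases with 3′ untranslated regions of 315 to 1427 bases, and which of them are in use was not measured.

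Other dynein regulators and adaptors were measured beside *Lis-1*. Of 8 symbols, 6 were matched and detected, with a median of 24.8 CPM per kilobase. *nudE*, a partner of *Lis-1*, was the highest at 41.2 ± 2.37, and *Spindly*, which recruits dynein to kinetochores, the lowest at 1.08 ± 0.128 (SD, n = 3). *BicD*, an adaptor for mRNA transport, had 24.2 ± 1.0 CPM per kilobase.

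Dynactin subunits were compared with the largest of them. *DCTN1-p150* (FBgn0001108, 3L, 13929387 to 13934656, plus strand), also known as Glued, encodes the arm of dynactin that binds microtubules and the dynein intermediate chain. It had 830, 777 and 667 counts, or 99.6, 106 and 106 CPM, and its intervals overlapped in the 3 libraries. Per kilobase it reached 22.8 ± 0.787 CPM (SD, n = 3).

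Among the other 9 dynactin genes, 7 lay between 15.0 CPM per kilobase (*DCTN4-p62*) and 23.5 (*cpa*, a capping protein subunit). *Arp1*, which builds the dynactin filament, stood higher at 60.0 ± 3.83, and *DCTN2-p50*, the dynamitin of the shoulder, at 39.2 ± 1.13 (SD, n = 3). In 3 of 3 libraries, *Arp1* exceeded *DCTN1-p150* by a log2 value of 1.39 ± 0.13 and *DCTN2-p50* did so by 0.78 ± 0.05. The *cpa* ratio of 0.04 ± 0.09 and the *DCTN6-p27* ratio of -0.05 ± 0.06 were within 1 SD of 0. *Arp1* and *DCTN2-p50* stayed above *DCTN1-p150* per kilobase of coding sequence, with log2 ratios of 1.51 and 0.77. On that scale the *cpa* ratio was larger, 0.94, and the ratios of *cpb* (0.78), *DCTN3-p24* (0.38) and *DCTN6-p27* (0.036) were above 0, so that *cpa* and *cpb* reached the level of *DCTN2-p50*. These subunit comparisons were chosen after the values were seen, as were those of dynein and kinesin subunits above. Over these 18 ratios, exact sign-flip permutation (two-sided) gave p = 0.25 and an adjusted p of 0.265, except 0.5 and 0.5 for *cpa*.

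**Figure D2:**
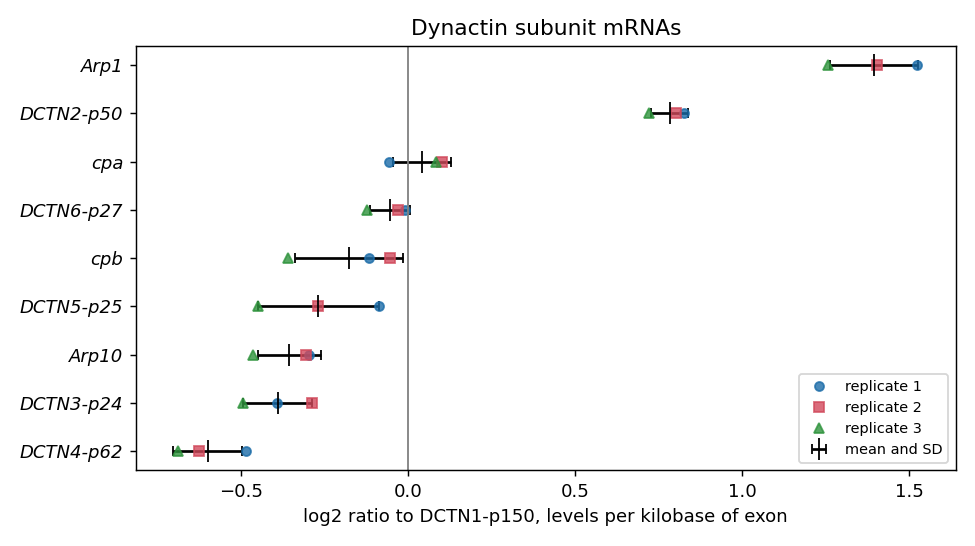
Log2 ratio of each dynactin subunit mRNA to *DCTN1-p150*, from levels per kilobase of exon, in each replicate library (symbols) with the mean and SD of 3 libraries (bars). *Arp1* at 1.39 and *DCTN2-p50* at 0.78 stand to the right of the other 7 subunits, which lie between -0.60 and 0.04.

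Adaptors were present at moderate levels. *milt* (FBgn0262872, 2L, 7037823 to 7056010, plus strand) encodes Milton, which joins mitochondria to kinesin-1. It had 2043, 1696 and 1541 counts, or 245, 231 and 245 CPM, with overlapping intervals, and 31.3 ± 1.06 CPM per kilobase (SD, n = 3). *Miro* (FBgn0039140, 3R, 24034362 to 24038847, minus strand) encodes the GTPase of the outer mitochondrial membrane. It had 598, 542 and 483 counts, or 71.8, 73.8 and 76.7 CPM, again with overlapping intervals, and 19.5 ± 0.651 CPM per kilobase. *milt* was above *Miro* per kilobase by a log2 value of 0.68 ± 0.07 in 3 of 3 libraries.

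*syd* (FBgn0024187, 3L, 7916650 to 7936120, minus strand) encodes Sunday driver, the fly JIP3. It had 1191, 1122 and 1023 counts, or 143, 153 and 162 CPM, and 27.2 ± 1.73 CPM per kilobase (SD, n = 3). The intervals of replicates 1 and 3 did not overlap. *Klc*, which binds *syd* protein, was 2.33-fold above it per kilobase, and *DCTN1-p150* lay below it by a log2 value of 0.25 ± 0.05, both in 3 of 3 libraries. Of 10 further kinesin adaptors and mitochondrial partners, 10 were detected, with a median of 42.2 CPM per kilobase. *Marf*, the mitofusin, was the highest at 76.8 ± 2.59, and *park*, the ubiquitin ligase that works with *Pink1*, the lowest at 6.62 ± 0.725.

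Parts of some transport genes overlap other genes, and whether counting used strand is not given in the sources used here. *Miro* shares 16.7% of its exon bases with *spas* on the opposite strand, which had 340, 320 and 222 counts, and *Klc* shares 7.51% with CG32109 (114, 126 and 96 counts). On the same strand, *unc-104* shares 2.08% with CG42392 (110, 92 and 91 counts) and *milt* shares 0.73% with *Caper*. *Khc*, *sw*, *Lis-1* and *DCTN1-p150* share 0 exon bases with other annotated genes.

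Pairs of members were compared by complex or cargo in 12 ratios per kilobase of exon. In 11 of them the sign was the same in 3 of 3 libraries. The exception was *Dhc64C* against *DCTN1-p150*, with log2 ratios of -0.14, -0.23 and 0.05, a mean of -0.11 ± 0.14 that did not differ from 0 beyond the spread (SD, n = 3). *Khc* was above *Dhc64C* by 1.09 ± 0.13 and above *milt* by 0.52 ± 0.15, and *sw* was below *DCTN1-p150* by a log2 ratio of -0.60 ± 0.11. An exact permutation of signs (two-sided) gave p = 0.25 for these 11 ratios, which is the lowest p that 3 libraries can reach, or 0.273 when adjusted over the 12 ratios by Benjamini-Hochberg.

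The measure of length mattered for some ratios. With the longest coding sequence in place of all exons, *Dhc64C* fell below *sw* (log2 ratio -0.17) and *Khc* below *milt* (-0.15). The ratio of *Lis-1* to *DCTN1-p150* grew from 2.09 to 3.32, since the exons of *Lis-1* are 2.81 times as long as its coding sequence. *unc-104* and *Lis-1* also changed places, with 263 and 273 CPM per kilobase of coding sequence. With the longest annotated transcript as length, the log2 ratio of *Khc* to *milt* was 0.05, inside its SD of 0.15 between libraries.

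**Figure D3:**
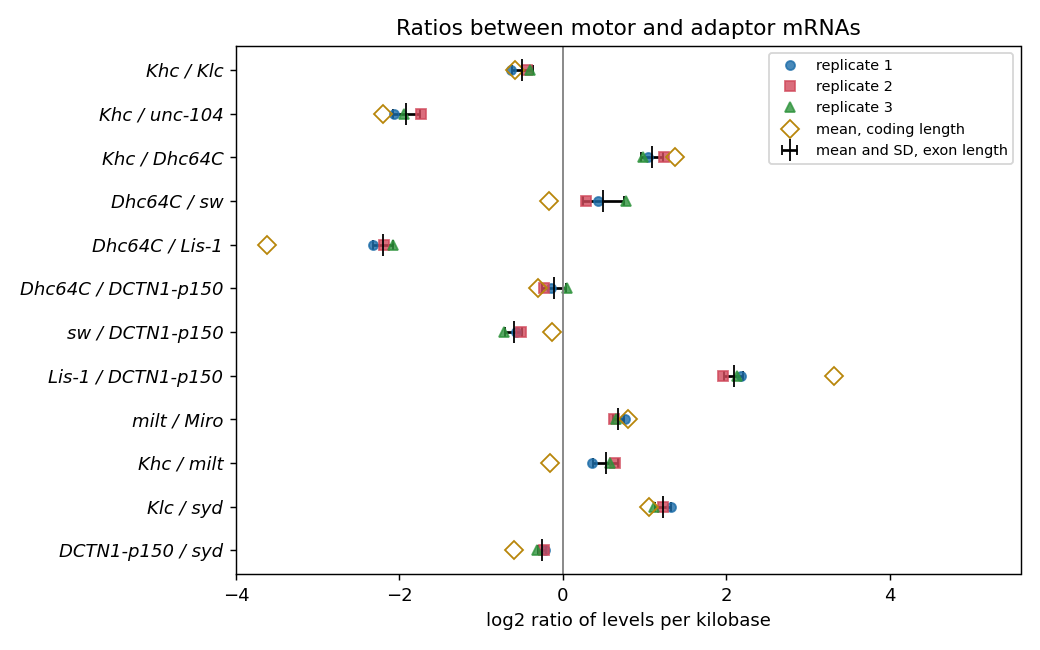
Log2 ratios between 12 pairs of transport mRNAs, from levels per kilobase of exon in each replicate library (symbols), with their mean and SD (bars) and the mean per kilobase of longest coding sequence (open diamonds). The diamonds of *Dhc64C* / *sw* at -0.17 and *Khc* / *milt* at -0.15 lie on the other side of 0 from the exon-length means of 0.50 and 0.52.

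In order of level per kilobase of exon, the genes ran *unc-104*, *Lis-1*, *Klc*, *Khc*, *milt*, *syd*, *DCTN1-p150*, *Dhc64C*, *Miro* and *sw*. *DCTN1-p150* and *Dhc64C* did not differ beyond their spread, nor did *Dhc64C* and *Miro* (log2 ratio 0.12 ± 0.12). The other neighbours had separate ranges over the libraries. The median of the 10 genes was 29.3 CPM per kilobase ± 1.0 (SD of the library medians, n = 3), beside 12.8 for the 9479 detected protein-coding genes, and 10 of 10 lay above that median. *unc-104* exceeded 95.7% ± 0.56 of these protein-coding genes per kilobase, and *sw* 55.4% ± 1.64 (SD, n = 3).

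**Figure D4:**
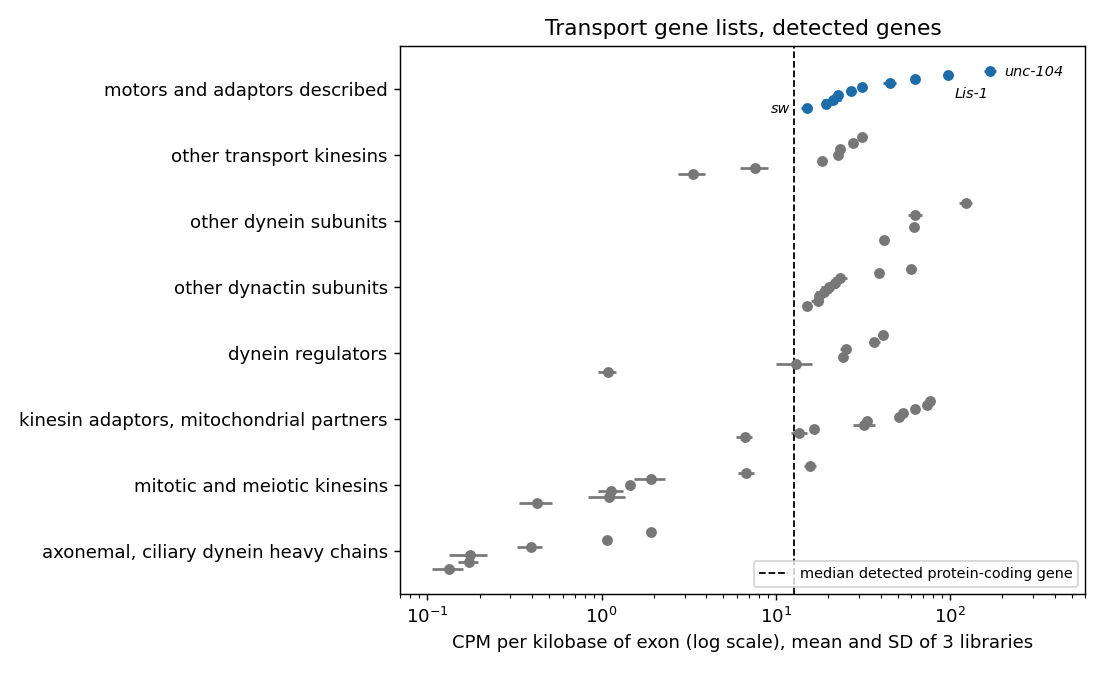
Level of each detected gene in 8 transport gene lists as CPM per kilobase of exon (log scale), with points for the mean and bars for the SD of 3 libraries, and a dashed line at 12.8 for the median detected protein-coding gene. The 10 genes described (blue) run from 15.0 for *sw* to 170 for *unc-104*, and the axonemal and ciliary heavy chains stop at 1.91.

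Variation between replicates differed among these genes. After TMM scaling, the CPM of a gene differed between its highest and lowest library by 1.04-fold for *Klc* up to 1.26-fold for *Dhc64C*. The coefficient of variation was 2.0% for *Klc*, 2.90% for *DCTN1-p150*, 4.06% for *Miro* and 5.43% for *sw*, against 3.23%, 3.63%, 4.30% and 5.24% from counting alone. For *unc-104* it was 9.77% against 0.999%, for *Dhc64C* 12.8% against 2.11% and for *Lis-1* 8.52% against 2.02%. *Khc* (7.60% against 2.86%), *syd* (6.62% against 3.0%) and *milt* (5.58% against 2.38%) also varied by more than counting error.

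edgeR's quasi-likelihood fit asked whether the libraries differed more for a gene than for genes of like abundance. Of the 9049 genes tested, 29 (0.32%) were called at an adjusted p under 0.05, and 0 of the 10 transport genes were. At an unadjusted p under 0.05, the counts were 420 genes (4.64%) and 0 transport genes. The 107 DESeq2 dispersion outliers also included 0 of the 10. A count of 0 among 10 genes is near such small shares of all genes. Without replicate 2, *Dhc64C* had an unadjusted p of 0.0409 from edgeR. With all 3 libraries, the smallest p of a transport gene was 0.136 for *Dhc64C* (adjusted p 0.992, edgeR), whose adjusted p from edgeR ranged from 0.763 to 0.998 over the alternatives. What edgeR calls the biological coefficient of variation ran from 0.0803 (*sw*) to 0.106 (*unc-104*) over the members, beside a common value of 0.10. These gene values are drawn towards those of genes of like abundance, so their closeness to the common value is partly set by the fit. The variation of a gene over that fitted for its abundance (quasi-dispersion over its prior) had a median of 0.699 for the 10 genes. For all tested genes the median was 0.762. It was below 1 for 7 of the 10 genes and for 58.9% of all tested genes. Of the other transport lists, 0 genes were called.

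The libraries still had a shared pattern. Of the 10 genes, 7 were highest in replicate 3 after TMM scaling and 6 were lowest in replicate 2, beside 33.3% and 35.4% of detected genes. Of these 6, *Klc* and *Miro* were lowest in replicate 2 only after TMM scaling and not in CPM, so that count depends on the scaling. In CPM, the 10 genes summed to 2902, 2784 and 3127 in replicates 1, 2 and 3. The 4 neuron markers summed to 3525, 3162 and 3736, in the same order. Singly, *unc-104* (1377, 1261 and 1478 CPM), *Lis-1* and *Dhc64C* had the order of the sums. *Khc*, *DCTN1-p150*, *Miro* and *syd* were lowest in replicate 1, *Klc* and *sw* were lowest in replicate 3, and *milt* was highest in replicate 1. Of the neuron markers, *elav* and *Syt1* had the order of the sums, *nSyb* was highest in replicate 1, and *brp* had 575, 575 and 678 CPM. The testis list, carried by *bol*, had the order of the sums too, with 220, 185 and 259 CPM. The photoreceptor markers summed in another order, with 34024, 36546 and 35761 CPM, but did not move together. *ninaE* (20659, 22791 and 22165 CPM) and *Arr2* were highest in replicate 2. *trp* (3815, 3439 and 3792 CPM) and *inaD* (558, 508 and 523 CPM) were lowest there. The muscle markers summed to 5628, 4663 and 5268 CPM and the glia markers to 3603, 3328 and 3345 CPM, both lowest in replicate 2. The haemocyte markers summed to 283, 337 and 404 CPM, highest in replicate 3. The sum of the fat body markers, 20715, 30211 and 22373 CPM, was highest in replicate 2 and held mostly yolk protein mRNAs (*Yp1* 7397, 12147 and 8672 CPM). *apolpp* moved less (4502, 4910 and 4412 CPM), and *Lsp2* had 150, 130 and 31 CPM. The part of cell makeup in the pattern was not tested.

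The pattern also moved with exon length. Among 7871 protein-coding genes that had 30 counts or more in every library, the median log2 ratio of replicate 3 to replicate 1 was -0.08 for exons under 1 kilobase (954 genes), 0.01 for 3 to 4 kilobases (989 genes) and 0.20 for over 12 kilobases (135 genes). Against replicate 2 the same medians were -0.13, 0.04 and 0.30. The markers differ in exon length too. Those highest in replicate 3 included *elav* (10715 bases), *Syt1* (7190), *brp* (13371) and *bol* (8169), while *nSyb* has 4072. Of those highest in replicate 2, *ninaE* (1588), *Arr2* (1547) and *Yp1* (1611) are short and *apolpp* (11766) is long. The parts of cell makeup and exon length in the marker orders were not tested.

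*Dhc64C*, with the longest exons, had a log2 ratio of 0.27 for replicate 3 to replicate 1 and 0.34 for replicate 3 to replicate 2, both inside the quartiles of its length class (0.12 to 0.28 and 0.23 to 0.39). When each gene was centred on its length class, which was added after the data were seen, the range of *Dhc64C* over libraries shrank from 0.34 to 0.08 on the log2 scale and that of *unc-104* from 0.28 to 0.086. The range of *Khc* stayed at 0.22 (0.22 before) and that of *Lis-1* at 0.20 (0.23 before). The ranges of *sw* (0.16 to 0.19) and *Klc* (0.057 to 0.069) grew, and those of *DCTN1-p150*, *milt*, *Miro* and *syd* shrank. *Khc* was higher in replicate 3 than in replicate 1 by a log2 value of 0.22, more than 91.2% of the genes in its length class. After centring, 5 of the 10 genes were highest in replicate 3 and 3 were lowest in replicate 2, while 5 were lowest in replicate 1 (3 before). Whether exon length itself set these differences was not tested.

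**Figure D5:**
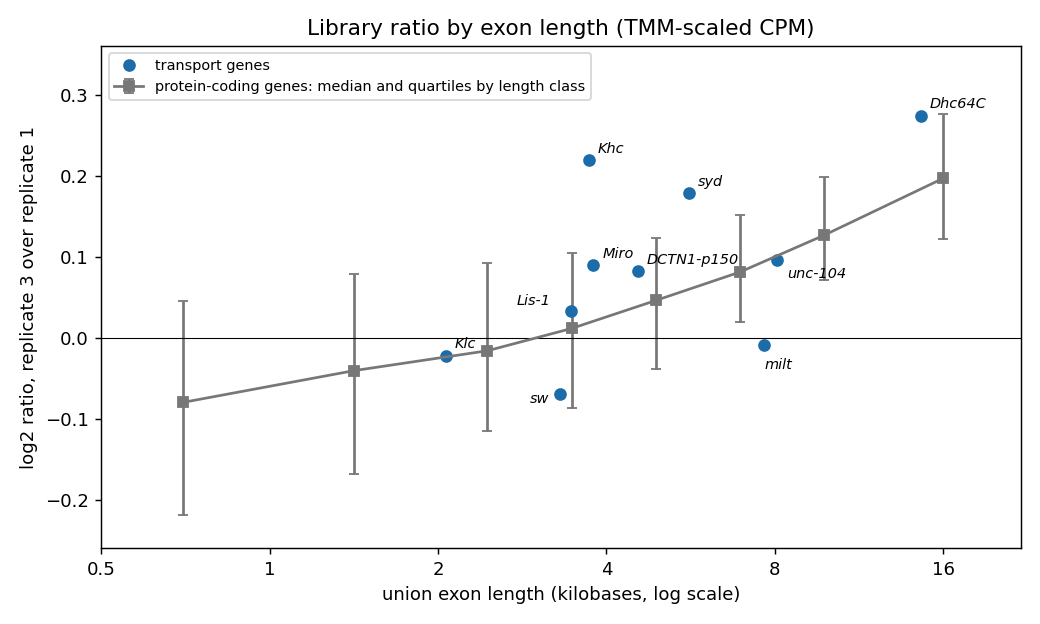
Log2 ratio of TMM-scaled CPM in replicate 3 over replicate 1 against union exon length (kilobases, log scale), with the 10 transport genes as points and the median and quartiles of protein-coding genes by length class as grey squares and bars. The grey medians climb from -0.08 to 0.20, and *Dhc64C* at 0.27 sits near the top of the curve while *Khc* at 0.22 sits above it.

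The genes of the wider transport lists whose profile over the 3 libraries was closest to the mean profile of the members were *Pat1*, *Marf*, *Khc-73*, *ens* and *Klp98A*. Their root mean square distances on the log2 scale were 0.012, 0.014, 0.02, 0.027 and 0.038, out of the 41 genes that passed a minimum of 30 counts per library. With 3 libraries and a shared trend with exon length, this is a description of these libraries.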

How the data were processed

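The deposited table holds raw counts of reads by FlyBase gene ID for 3 libraries made with the TruSeq Stranded mRNA kit. The submitters' processing notes list STAR 2.7.4a, Subread, featureCounts and dm6, and the methods name Ensembl release 96. How multi-mapping reads were treated is not given in the sources used here. The table held 0 columns of other samples. Symbols, exon lengths and positions came from Ensembl release 115 (dm6 coordinates), which matched 98.3% of the IDs. Of 99 further list symbols, 93 were in the table.

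CPM used the total of all counts. Wilson 95% intervals cover counting error only. Log2 ratios used 0.5 added counts and exact permutation of signs (two-sided). Replicate variation was fitted over all genes with edgeR 4.0.16 in R 4.3.3 (TMM, filterByExpr, intercept only), as the upper tail of an F test of each quasi-dispersion against its prior with Benjamini-Hochberg adjustment. DESeq2 1.42.0 was an alternative. In counts simulated for 9049 genes, with 200 changed in 1 library each, 10.4% of changes of 2-fold, 85.7% of 4-fold and 100% of 8-fold were recovered among genes that passed the filter. All members were named. From each list the highest and lowest detected gene per kilobase were named, with others chosen after their values were seen. Members and lists were chosen with earlier results of these data known.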

Additional observations from a re-analysis of the deposited data

How the results depend on the processing

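Of 312 alternative values, 265 kept their direction or stayed within the spread between libraries (within 1.5 times for counts of genes). Leaving out 1 library cannot reverse a mean ratio whose sign was the same in 3 of 3 libraries. Each such setting kept 51 of 52 values, and each change of the added counts kept 12 of 12. Percentiles among detected genes moved in 29 alternatives and stayed in 31. Taken per kilobase of exon, 0 of 10 percentiles stayed, and that of *Dhc64C* fell from 93.8 to 67.9. The median of the 10 genes, 29.3 CPM per kilobase, became 31.1 with totals that leave out mitochondrial genes, 36.2 with the longest transcript as length and 49.4 with the longest coding sequence. The median detected protein-coding gene rose too, to 13.3 and 19.8 with these lengths. The ratios that reversed did so per kilobase of coding sequence: *Dhc64C* to *sw* (-0.17), *Khc* to *milt* (-0.15), and *DCTN3-p24* (0.38), *DCTN6-p27* (0.036) and *cpb* (0.78) to *DCTN1-p150*. The count of variable genes, 29, became 118 with no filter on low counts, 107 with DESeq2 dispersion outliers, and 44 to 57 when 1 library was left out (55 without replicate 1, 57 without replicate 2, 44 without replicate 3), and 0 of the 10 genes were called in each. The cause of these count changes was not tested. No paired analysis was possible because there is 1 group of samples. With 3 libraries and 2-fold changes in 1 library rarely recovered in simulation, smaller differences between replicates could be missed.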

Other observations

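A few further genes of the lists are given as values, chosen after they were seen. *cana*, a kinesin related to CENP-E, had 392, 310 and 330 counts and was second among the spindle kinesins at 6.77 CPM per kilobase ± 0.732 (SD, n = 3), while its relative *cmet* had 0 counts in each library. Of the 5 testis markers, *bol* had 1837, 1348 and 1632 counts, while *dj*, *Mst84Da*, *Mst87F* and *aly* had between 0 and 5 counts in each library. *Lsp2* and *Act88F* were the listed marker genes called by edgeR as more variable between libraries than genes of like abundance.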
